A study of Homo sapiens with 18 samples.

Results

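The comparison describes C4-2 cells against the LNCaP cells they were derived from, both transfected with scrambled siRNA (siScr) and both given the synthetic androgen R1881 (1 nM, 72 h). It rests on 6 of the 18 RNA Seq libraries of the series, 3 per line, chosen by their titles. LNCaP is an androgen-dependent human prostate cancer cell line, and C4-2 is an androgen-independent line derived from it. R1881 binds the androgen receptor and is not readily metabolised. The study asked how the lysine demethylases KDM1A and KDM7A act with the androgen receptor. The other 12 libraries held, for each line, siScr cells with vehicle (0 nM R1881) and cells with siRNA pools against both KDM1A and KDM7A (dual knockdown) with R1881 (1 nM, 72 h), 3 libraries in each group. All were human cell cultures of a single line each, grown for R1881 experiments in phenol red-free medium with hormone-depleted serum. The titles of the 3 C4-2 vehicle libraries name C4-2, while their cell line field names LNCaP, so their values are given by title. Whether replicates were separate cultures is not in the labels, so the p-values measure the spread between these libraries.

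Values are read pairs per gene, given as counts per 1000000 reads of the effective library size (CPM). Total counts were 14350626 to 18713825 in LNCaP with R1881 and 16781938 to 19092897 in C4-2 with R1881. Of 57439 autosomal genes listed, 17993 had enough counts to test. Genes on the X and Y chromosomes, the gene of the androgen receptor among them, were left out. A gene was called with an adjusted p below 0.05 in edgeR's quasi-likelihood test and a log2 fold change (log2FC, C4-2 minus LNCaP) of at least 1 in either direction.

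Prostate luminal cells are the secretory cells of the gland. They depend on the androgen receptor, which switches on genes of secretion, lipid synthesis and differentiation once androgen binds, with FOXA1 and HOXB13 as partner factors of the lineage. Prostate cancers that outgrow androgen withdrawal often keep the receptor active, and some lose luminal genes or take up basal, neuroendocrine or gut features. Growth factor receptors, lipid and amino acid supply, and the inactivation of androgens by glucuronidation are other routes known to change in such cancers.

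Both lines had the luminal factors. FOXA1, which opens chromatin for the receptor, was at 453, 434 and 431 CPM in the LNCaP libraries and 283, 271 and 265 CPM in those of C4-2 (log2FC -0.69 ± 0.065, SE). HOXB13 was at 287 against 214 CPM. FOLH1, the prostate-specific membrane antigen, was at 711 ± 42.9 CPM in LNCaP and 798 ± 23.2 CPM in C4-2 (SD, n = 3). None of these 3 reached the 2-fold threshold. Of the defining basal markers, TP63 and KRT5 had too few counts to test, and KRT14 was at 1.18 and 0.985 CPM. The neuroendocrine markers CHGA, INSM1 and NEUROD1 also had too few counts. The summed level was 322 to 345 CPM (LNCaP) and 429 to 451 CPM (C4-2) over the 20 basal genes listed, and 283 to 324 CPM (LNCaP) and 148 to 155 CPM (C4-2) over the 26 neuroendocrine and neural genes. Over the 30 luminal genes it was 15300 to 15900 CPM in the LNCaP libraries and 7260 to 7550 CPM in those of C4-2. KLK3 made up 4426 to 4744 CPM of the LNCaP sums and 378 to 417 CPM of those of C4-2. Of the 28 luminal genes tested, 16 were not called. Of 18 markers of fibroblasts, endothelium, blood and squamous cells, 6 could be tested, and their summed level was 57.0 to 59.8 CPM in the LNCaP libraries and 54.5 to 63.2 CPM in the C4-2 libraries. PECAM1, CDH5, DCN and KRT1 were at 0 in LNCaP, and CD3E, HBB, KRT1, KRT13 and DSG3 at 0 in C4-2. Of these markers LYZ was called higher and COL3A1 lower, both below 1 CPM in each line. Without C4-2 replicate 3 the list held only 1 call, and a change in the mix of cells was not tested. KDM1A was at 108 ± 4.45 CPM in LNCaP and 142 ± 3.22 CPM in C4-2 (log2FC 0.39). KDM7A was at 55.03, 65.03 and 59.2 CPM in LNCaP and 112, 118 and 132 CPM in C4-2 (log2FC 1.01 ± 0.10), a call that was lost (0.95 and 0.94) without LNCaP replicate 1 or C4-2 replicate 3.

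With R1881 in both lines, 1941 genes were higher and 2310 lower in C4-2. Called genes made up 23.6% of the genes tested, 10.8% higher and 12.8% lower, and these shares are the background against which each list below is read. The 3 libraries of each line did not overlap for 4142 of the 4251 called genes, among them every called gene whose library values are listed below. Over all genes tested, 11654 (64.8%) did not overlap. A log2FC of at least 3 in size was found for 485 higher and 479 lower genes. The median log2FC of all genes tested was -0.0133. Of the called genes, 1360 had a mean below 1 CPM over the 6 libraries, and such genes pass the filter mostly through the line in which they are high.

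**Figure D1:**
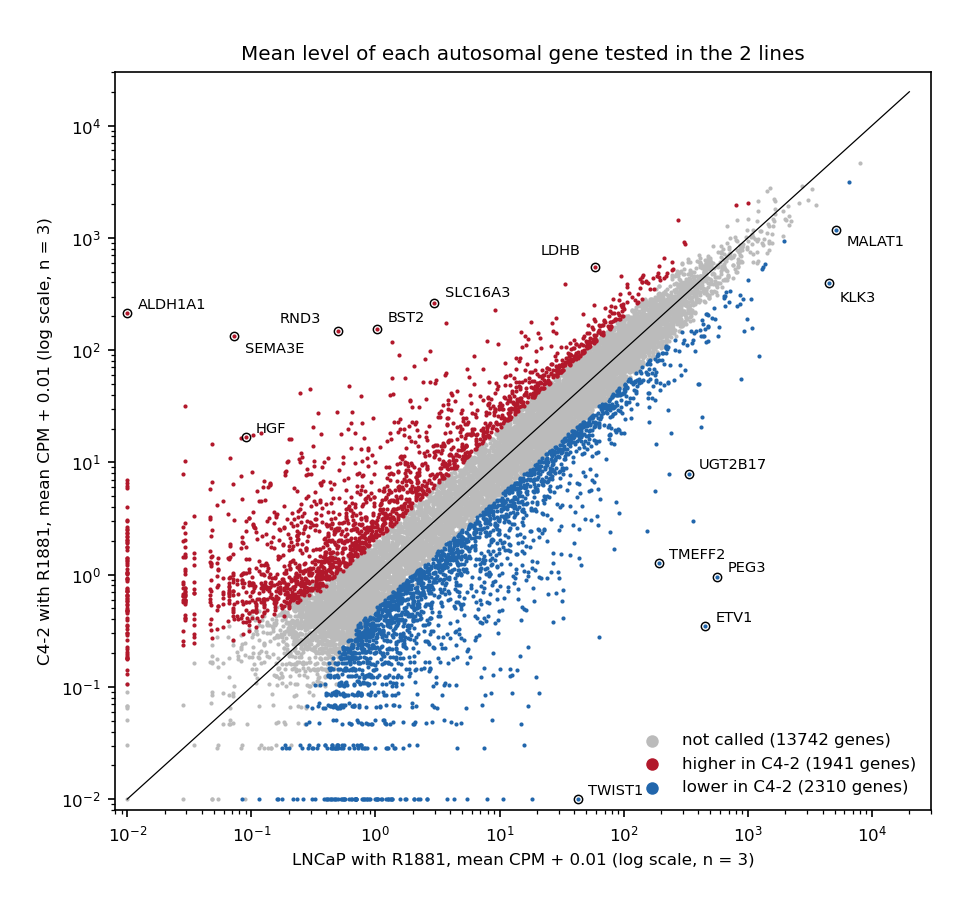
Mean level of each autosomal gene tested in C4-2 (vertical axis) against LNCaP (horizontal axis), both with siScr and R1881, in CPM plus 0.01 on log scales. Red points are the 1941 genes called higher and blue points the 2310 called lower in C4-2. Circled genes such as ALDH1A1 (212 CPM in C4-2, 0 in LNCaP) and ETV1 (0.337 CPM in C4-2, 450.4 in LNCaP) lie far from the line of equal level.

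A small group of genes was at or near 0 in one line and plainly expressed in the other. With at most 3 counts over the 3 libraries of LNCaP and at least 5 CPM in C4-2 there were 15 genes, and in the other direction 12. The highest of the 15 was ALDH1A1 (ENSG00000165092, chr9:72900662-73080442), a retinaldehyde dehydrogenase, with 221, 209 and 207 CPM in the C4-2 libraries and 0 counts in LNCaP, at least 3490-fold higher with LNCaP set to a floor of 3 counts over the group. SEMA3E (chr7:83363906-83649010), a secreted semaphorin that guides axons and vessels, had 131, 132 and 138 CPM in C4-2 and 3 counts in all of LNCaP, a difference of 2190-fold (exact 95% interval 751 to 10600). This interval and those that follow cover counting error only. LINC00221 (31.9 CPM), CDH3, which encodes P-cadherin (14.6 CPM), RGL3 (10.9 CPM) and SLFN13 (10.2 CPM) followed, each with 1 to 3 counts in LNCaP.

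In the other direction TWIST1 (ENSG00000122691, chr7:19020991-19117672), a transcription factor of mesenchymal cells, had 43.7, 44.7 and 39.6 CPM in the LNCaP libraries and 0 counts in C4-2, at least 741-fold lower. MT1G, a metallothionein that binds zinc, fell from 18.4 ± 1.89 CPM to 0 counts (at least 318-fold lower). LRRN1, a neuronal leucine-rich repeat protein, had 16.03, 19.3 and 15.5 CPM in LNCaP and 3 counts in C4-2, a difference of 292-fold (exact 95% interval 99.6 to 1420). MBNL2, a splicing regulator, fell from 15.7 ± 2.78 CPM to 1 count, 809-fold (exact 95% interval 145 to 32000) lower. DNAJC15, a mitochondrial co-chaperone, was at 10.6 ± 1.66 CPM in LNCaP and at 0 counts in C4-2 (at least 182-fold lower). OR51E1 and OR51E2, a pair of odorant receptors known for their expression in prostate, were both near 0 in C4-2. OR51E1 had 14.1, 12.6 and 18.2 CPM in the LNCaP libraries and 2 counts in C4-2, and OR51E2 had 8.48, 5.71 and 9.37 CPM and 0 counts. CA2, a carbonic anhydrase, was at 8.67 CPM in LNCaP with 2 counts in C4-2.

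The RefSeq promoters (GRCh38.p14, 250 bases before to 50 after the start, 5′ to 3′ on the gene's strand) of a pair of these genes from each direction are shown with each CG dinucleotide, the base pair context in which DNA is methylated, in capitals. They are highly expressed such genes whose RefSeq start lies within the gene as counted or within 1 kb of it. The LRRN1 promoter (chr3:3799181-3799480, plus strand) held 42 CG dinucleotides, OR51E1 (chr11:4643732-4644031, plus strand) 3, ALDH1A1 (chr9:72953004-72953303, minus strand) 7 and SEMA3E (chr7:83649090-83649389, minus strand) 6.
LRRN1: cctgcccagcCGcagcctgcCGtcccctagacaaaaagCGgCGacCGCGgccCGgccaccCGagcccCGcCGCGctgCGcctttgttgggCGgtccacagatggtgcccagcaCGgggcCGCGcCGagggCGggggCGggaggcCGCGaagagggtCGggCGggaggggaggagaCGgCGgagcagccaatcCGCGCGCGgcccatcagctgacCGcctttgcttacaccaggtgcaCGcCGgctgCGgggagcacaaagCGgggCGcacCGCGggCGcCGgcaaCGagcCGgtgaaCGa
OR51E1: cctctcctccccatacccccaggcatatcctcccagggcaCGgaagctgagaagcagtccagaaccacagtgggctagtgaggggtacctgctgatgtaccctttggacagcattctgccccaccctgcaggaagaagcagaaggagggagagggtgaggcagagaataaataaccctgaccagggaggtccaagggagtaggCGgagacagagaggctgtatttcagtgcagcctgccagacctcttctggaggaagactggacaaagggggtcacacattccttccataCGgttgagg
ALDH1A1: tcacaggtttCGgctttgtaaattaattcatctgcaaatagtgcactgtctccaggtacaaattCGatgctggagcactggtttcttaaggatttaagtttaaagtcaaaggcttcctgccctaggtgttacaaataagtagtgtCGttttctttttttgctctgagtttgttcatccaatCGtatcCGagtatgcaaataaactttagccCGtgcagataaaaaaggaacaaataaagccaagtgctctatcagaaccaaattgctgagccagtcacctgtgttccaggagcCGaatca
SEMA3E: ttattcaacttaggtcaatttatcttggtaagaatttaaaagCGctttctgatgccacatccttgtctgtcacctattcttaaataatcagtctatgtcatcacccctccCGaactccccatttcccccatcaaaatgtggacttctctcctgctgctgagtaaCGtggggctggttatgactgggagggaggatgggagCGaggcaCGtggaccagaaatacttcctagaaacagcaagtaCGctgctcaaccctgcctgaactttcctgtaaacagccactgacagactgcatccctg
Promoters in the table matched 11786 of the 17993 genes tested, with a median of 26 CG dinucleotides each. The median was 23 for the matched genes called higher and 21 for those called lower. It was 20 and 14 for the genes with a log2FC of at least 3 in size, higher and lower. Among the near-silent genes it was 28 for the 11 matched of the 15 near 0 in LNCaP. For the 6 matched of the 12 near 0 in C4-2 it was 13. DNA methylation was not measured.

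More luminal prostate genes were lower than higher in C4-2. Of 30 genes, 28 were tested, 8 were lower (28.6%) and 4 higher (14.3%), with a median log2FC of -0.55. The largest decrease was TMEFF2 (chr2:191949043-192195709), a membrane protein of prostate and brain, with 187, 190.2 and 196 CPM in the LNCaP libraries and 1.37, 1.01 and 1.41 CPM in C4-2 (log2FC -7.23 ± 0.12, edgeR adjusted p = 3.4e-21). ACPP, prostatic acid phosphatase, fell from 231 ± 9.38 to 7.84 ± 0.723 CPM (log2FC -4.88). KLK3 (ENSG00000142515, chr19:50854915-50860764), which encodes prostate-specific antigen, had 4426, 4441 and 4744 CPM in LNCaP and 396, 378 and 417 CPM in C4-2 (log2FC -3.52 ± 0.10, edgeR adjusted p = 1.7e-17). The related kallikrein KLK2 fell from 867 ± 63.4 to 257 ± 7.49 CPM (log2FC -1.75 ± 0.082). The libraries of the lines were far apart for each of these 4 genes. The serine protease HPN and the luminal keratins KRT8 and KRT18 were also lower, with a log2FC of -1.57, -1.30 and -1.02. The luminal genes that were higher were EPCAM, an epithelial adhesion protein (21.9, 31.5 and 28.04 CPM in LNCaP, 159, 138 and 144 CPM in C4-2, log2FC 2.44), the keratin KRT19 (log2FC 1.55), GATA3 and MSMB. GATA3 was low, with 38 counts in C4-2 and 1 in LNCaP over 3 libraries each, a difference of 35.8-fold (exact 95% interval 6.05 to 1450). MSMB lost its call without replicate 3 of either line (0.98 and 0.83). KLK2 and KLK3 are similar in sequence, and reads shared between them could not be assigned from the counts.

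Of 29 genes known to be induced by androgen in LNCaP, all tested, 7 were lower (24.1%) and 1 higher (3.45%), with a median log2FC of -0.67. With vehicle the median of this list was 0.0824. The list was chosen for induction in LNCaP, itself a line of the comparison, so the choice favours higher levels in LNCaP with R1881. Besides KLK3 and KLK2, the transcription factor MAF fell from 209.8 ± 8.76 to 49.1 ± 5.26 CPM (log2FC -2.09), the potassium channel KCNN2 from 159 ± 8.48 to 22.9 ± 2.18 CPM (-2.79) and the metalloreductase STEAP4 from 61.5 ± 5.57 to 12.5 ± 2.02 CPM (-2.30). The exception was PTGER4, a prostaglandin receptor, at 11.5, 10.5 and 13.5 CPM in LNCaP and 25.2, 22.1 and 27.2 CPM in C4-2 (log2FC 1.06, below 1 without LNCaP replicate 2 or C4-2 replicate 3). TMPRSS2, a serine protease whose promoter drives the common ERG fusion, was at 1173, 1157 and 1289 CPM against 616, 602 and 645 CPM (log2FC -0.96), just inside the threshold. FKBP5, a chaperone of steroid receptors, was at 1933 against 1036 CPM (-0.90). The KLK3 promoter (chr19:50854665-50854964, plus strand) is shown because KLK3 is the standard readout of androgen action, with the androgen receptor half-site AGAACA in capitals.
KLK3: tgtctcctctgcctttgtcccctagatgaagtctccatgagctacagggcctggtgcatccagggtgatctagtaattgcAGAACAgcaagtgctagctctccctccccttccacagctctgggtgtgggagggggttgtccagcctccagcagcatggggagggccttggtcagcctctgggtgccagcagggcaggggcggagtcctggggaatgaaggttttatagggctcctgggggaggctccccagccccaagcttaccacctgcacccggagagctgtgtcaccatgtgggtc
The letters AGAACA, searched on both strands, were present in 9.55% of the 11786 promoters matched, in 11.7% of those of higher genes and in 11.6% of those of lower genes. Enhancers outside this window were not searched.

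The called genes of the basal, mesenchymal and neuroendocrine lists went in both directions. Of 20 basal genes, 12 were tested, 3 were higher and 5 lower. Higher were CDH3, described above, and the integrin ITGA2, at 4.76, 5.27 and 3.16 CPM in LNCaP and 32.2, 37.4 and 35.4 CPM in C4-2 (log2FC 3.003). ITGB4 was higher too, from 0.95 to 2.03 CPM (1.07), but not without LNCaP replicate 2 or C4-2 replicate 1 (0.88 and 0.96). Lower were ITGA6, the laminin receptor subunit (-1.24), the laminin chain LAMB3 (-2.04), the survival factor BCL2 (-1.84) and KRT15 (-2.27). Of 18 mesenchymal genes tested of 25, 5 were higher and 6 lower. The fall of TWIST1 was joined by ACTA2, smooth muscle actin (5.75 ± 1.30 to 0.174 ± 0.0676 CPM, log2FC -4.997), the matrix protein FN1 (160.2 ± 13.3 to 41.8 ± 3.62 CPM, -1.94) and VIM, which encodes vimentin (-1.41). The matrix genes FBN1 (1.86), COL5A1 (1.37) and COL1A1 (1.22) were higher. CDH1, which encodes E-cadherin, was at 672 and 622 CPM (log2FC -0.11). Of 11 neuroendocrine and neural genes tested of 26, 2 were higher (18.2%) and 4 lower (36.4%). The higher ones were the granin-related SCG5 (0.159 to 0.672 CPM, 2.004) and the receptor RET (0.227 to 0.61 CPM, 1.33), both below 1 CPM, and the 6 calls of this list became 3 when only the groups compared were fitted. The lower ones of at least 1 CPM were led by SYT4, a synaptotagmin of secretory vesicles (85.6, 99.7 and 87.3 CPM in LNCaP, 3.52, 3.48 and 3.49 CPM in C4-2, log2FC -4.69), with UCHL1 (-2.10) and ENO2 (-1.18) after it. NCAM1, below that level, had 38 counts over the LNCaP libraries and 0 in C4-2, at least 13.4-fold lower.

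HOX genes, which set position along the body axis, were the lineage list with the largest share higher. Of 39 HOX genes, 26 were tested, 11 were higher (42.3%) and 4 lower, with a median log2FC of 1.03. HOXB7 rose from 0.109, 0.586 and 0.23 CPM to 10.2, 8.88 and 8.51 CPM (log2FC 4.97 ± 0.40, and 5.71 without LNCaP replicate 2). HOXC8 (3.33), HOXA6 (2.17) and HOXC12 (2.25 to 8.76 CPM, 1.96) were also higher, and HOXB9 was lower (-1.37). Also lower were HOXA13 (34 counts over the LNCaP libraries, 1 in C4-2) and HOXD10 (33 counts and 1). All 11 HOX genes called higher had a mean below 10 CPM in each line. With at least 10 counts in every library only 3 HOX calls remained. The summed level of the HOX genes tested was 347.7 CPM in LNCaP and 332.2 CPM in C4-2. HOXA6 lies on chromosome 7, where 26.5% of the genes tested were higher. Of 18 gut, liver and pancreas genes tested of 31, 6 were higher and 2 lower. The nuclear receptor HNF4G (0.711, 0.879 and 0.632 CPM to 5.28, 4.10 and 6.24 CPM, log2FC 2.81), the pancreatic factor PDX1 (0.0948 to 2.65 CPM), the mucin MUC5AC (0.501 to 4.81 CPM) and the trefoil peptide TFF3 (0.96 to 4.88 CPM) rose from low levels. CPS1, the first enzyme of the urea cycle, fell from 45.9 ± 1.71 to 4.07 ± 0.652 CPM (log2FC -3.49), and the fibrinogen chain FGA fell with it (-4.02).

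**Figure D2:**
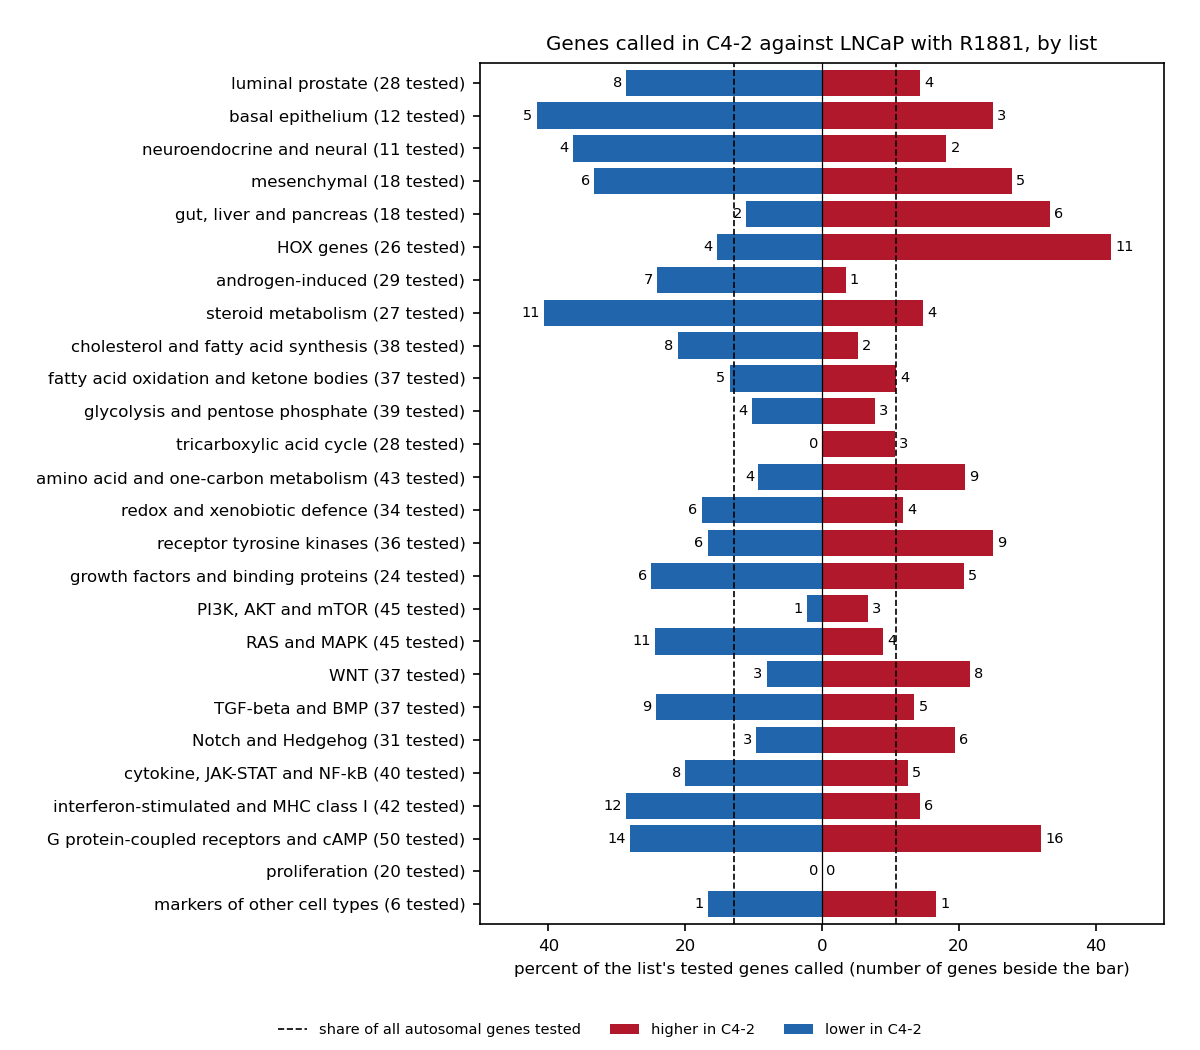
Share of the tested genes of each of 26 lists that was called higher (red, to the right) or lower (blue, to the left) in C4-2 than in LNCaP, both with R1881, in percent, with the number of genes beside each bar. Dashed lines mark the shares over all autosomal genes tested, 10.8% and 12.8%. The steroid metabolism list reached 40.7% lower and the HOX list 42.3% higher, while no proliferation gene was called.

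Steroid metabolism had the largest share of lower genes among the metabolic lists. Of 41 genes, 27 were tested, 11 were lower (40.7%) and 4 higher, with a median log2FC of -0.72. The UDP-glucuronosyltransferases of the UGT2B family, which attach glucuronic acid to androgens so that they can be excreted, accounted for 5 of the 11. UGT2B17 (chr4:68537184-68568527) had 303, 368 and 326 CPM in the LNCaP libraries and 9.68, 7.53 and 6.55 CPM in C4-2 (log2FC -5.39 ± 0.12, edgeR adjusted p = 3.84e-19). UGT2B15 fell from 431 ± 44.4 to 25.5 ± 2.61 CPM (-4.08), UGT2B10 from 41.7 ± 3.70 to 4.87 ± 0.316 CPM (-3.09) and UGT2B11 from 979.6 ± 139 to 191 ± 6.21 CPM (-2.36). UGT2B28 was at 199, 269 and 203 CPM against 105, 99.5 and 101 CPM (-1.13, and -0.98 without LNCaP replicate 2). These genes are near copies of each other on chromosome 4, so how reads were divided among them is uncertain. Their summed level fell from 2010 to 334 CPM over the 7 UGT2B genes tested. CYP3A5, which oxidises steroids and drugs, fell from 22.6 ± 0.737 to 2.54 ± 0.344 CPM (-3.15). Higher were CYP1A1 (4.24 to 13.6 CPM, 1.68) and CYP4F8 (1.65).

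Lipid synthesis was lower at a few steps. Of 38 genes of cholesterol and fatty acid synthesis, all tested, 8 were lower (21.1%) and 2 higher (5.26%), with a median log2FC of -0.37. HMGCS1, which makes the precursor of mevalonate, fell from 427, 429.7 and 481 CPM to 116, 158 and 124 CPM (log2FC -1.75 ± 0.10). FDFT1, squalene synthase, fell from 1011 ± 70.5 to 418 ± 21.2 CPM (-1.27) and the elongase ELOVL6 from 126 ± 4.90 to 42.9 ± 3.30 CPM (-1.56). FASN, fatty acid synthase, was at 7355, 5665 and 6575 CPM in LNCaP and 2801, 3438 and 3149 CPM in C4-2 (-1.06 ± 0.12). Per length it was among the most abundant genes called lower. The FASN call was lost without replicate 1 of either line (-0.97 and -0.98). Among the higher genes was FADS2, a fatty acid desaturase (999 ± 77.2 to 2051 ± 77.7 CPM, 1.04, and 0.97 without LNCaP replicate 2).

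Of 37 genes of fatty acid oxidation and ketone bodies, all tested, 4 were higher (10.8%) and 5 lower (13.5%), shares close to the background, with a median log2FC of -0.0331. ACADL, the long-chain acyl-CoA dehydrogenase of mitochondria, rose from 1.04, 1.83 and 1.21 CPM in LNCaP to 118, 114 and 119 CPM in C4-2 (log2FC 6.46 ± 0.14, edgeR adjusted p = 4.73e-19). ACADVL, which acts on longer chains, fell from 655 ± 29.8 to 305 ± 6.87 CPM (-1.10). PPARGC1A, a coactivator of mitochondrial genes (0.272 to 8.72 CPM, 5.01), the peroxisomal oxidase ACOX2 (1.52 to 22.9 CPM, 3.86) and CPT1C (3.79 to 32.9 CPM, 3.11) were higher. OXCT1, which activates ketone bodies for use, fell from 353, 381 and 386 CPM to 97.3, 102 and 95.8 CPM (-1.92).

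In glycolysis 3 genes were higher and 4 lower of 39 tested, close to the background shares, but the median log2FC was 0.42. SLC16A3, a lactate exporter, rose from 2.35, 3.002 and 3.56 CPM to 265, 263 and 263 CPM (log2FC 6.47 ± 0.19, edgeR adjusted p = 2.71e-17). The other lactate carrier SLC16A1 fell from 274, 319.6 and 333 CPM to 66.5, 69.3 and 65.3 CPM (-2.20 ± 0.08). LDHB, the lactate dehydrogenase subunit of oxidative tissues, rose from 56.2, 64.1 and 56.02 CPM to 589, 522 and 533 CPM (3.22). LDHA was at 1216 and 1746 CPM (0.52), under the threshold, as was the glucose carrier SLC2A1 (61.4 and 122 CPM, 0.99). HK1, the first enzyme of glycolysis, was higher (1.06), and the glucose carrier SLC2A12 fell from 72.6 ± 6.31 to 10.7 ± 0.363 CPM (-2.77).

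In the tricarboxylic acid cycle the median log2FC was 0.58. Of 28 genes tested, 3 were higher (10.7%, close to the background share) and none lower. The 3 were DLD, a subunit shared by the pyruvate and oxoglutarate dehydrogenases (280.0, 335 and 299.7 CPM in LNCaP, 943, 881 and 921.4 CPM in C4-2, 1.59), MDH2, malate dehydrogenase (313 ± 9.79 to 889 ± 50.9 CPM, 1.51), and SDHB, of succinate dehydrogenase (1.18). DLD and MDH2 lie on chromosome 7, where 26.5% of the genes tested were higher, as described below. Amino acid and one-carbon metabolism had 9 of 43 genes higher (20.9%) and 4 lower (9.30%), with a median of 0.41. SLC7A5, the carrier of large neutral amino acids, rose from 11.3, 9.52 and 6.84 CPM to 219, 241 and 217 CPM (log2FC 4.61 ± 0.14). A second carrier of these amino acids, SLC43A1, rose from 107 ± 4.77 to 367 ± 5.995 CPM (1.78). BCAT1, which transaminates branched-chain amino acids (2.10 to 22.7 CPM, 3.45), was higher. GNMT, glycine N-methyltransferase, fell from 101 ± 5.62 to 18.1 ± 0.943 CPM (-2.48), and ARG2, the mitochondrial arginase, from 89.8 ± 8.15 to 19.6 ± 1.51 CPM (-2.19).

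Of 34 redox and xenobiotic genes tested of 40, 4 were higher and 6 lower. ALDH1A1 and MT1G, described above, were among them. ALDH1A3, which like ALDH1A1 oxidises retinaldehyde, moved the other way, from 100.2, 108 and 101 CPM in LNCaP to 21.9, 25.7 and 25.8 CPM in C4-2 (log2FC -2.08). The glutathione transferases were split, with GSTM3 higher (58.7 to 180.2 CPM, 1.62) and GSTA4 lower (42.4 to 6.52 CPM, -2.70).

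**Figure D3:**
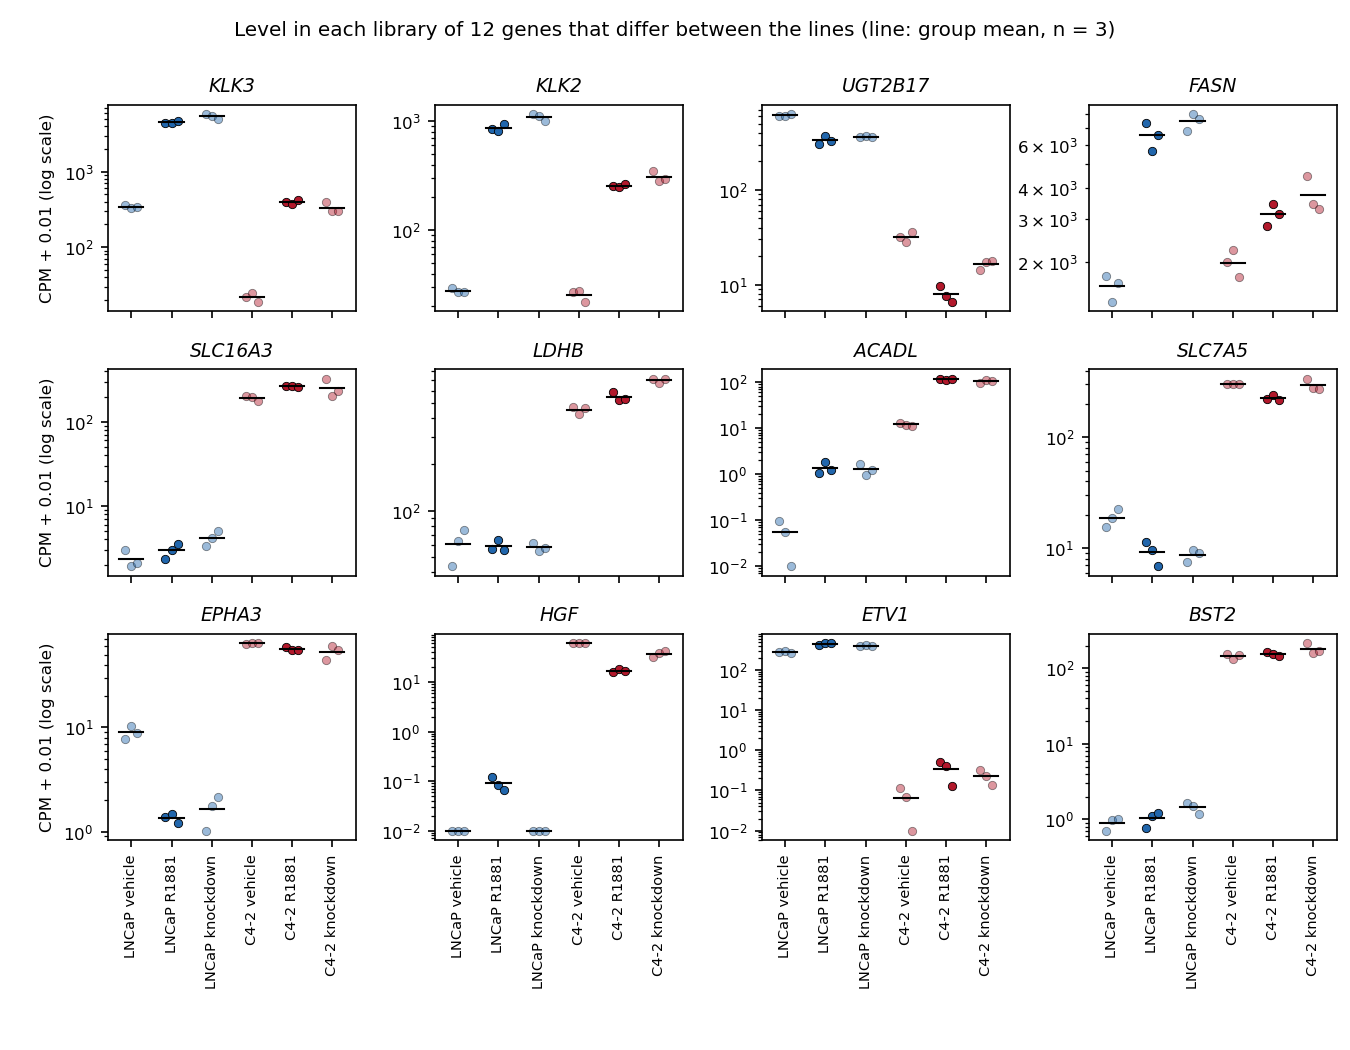
Level of 12 genes in each of the 18 libraries, in CPM plus 0.01 on a log scale, with LNCaP groups in blue and C4-2 groups in red. Each point is a library, black lines are group means (n = 3), and the R1881 siScr groups are drawn in full colour. SLC16A3 was at 2.35 to 3.56 CPM in LNCaP with R1881 and 263 to 265 CPM in C4-2, and BST2, EPHA3 and ETV1 show a like separation.

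Receptor tyrosine kinases went in both directions, also within families. Of 36 tested of 56, 9 were higher (25%) and 6 lower (16.7%), with a median log2FC of 0.10. Among the fibroblast growth factor receptors, FGFR2 rose from 1.64, 1.39 and 1.49 CPM to 8.14, 8.60 and 8.38 CPM (log2FC 2.46), while FGFR1 fell from 10.6 ± 1.01 to 1.76 ± 0.134 CPM (-2.59) and FGFR3 from 11.00 ± 0.87 to 1.65 ± 0.301 CPM (-2.74). Among the ephrin receptors, EPHA3 rose from 1.37, 1.46 and 1.21 CPM to 59.6, 55.1 and 55.3 CPM (5.40 ± 0.17), and EPHA7 fell from 246, 266 and 251 CPM to 55.8, 51.9 and 54.7 CPM (-2.23 ± 0.067). EPHB6 was higher (4.47, and 5.06 without LNCaP replicate 1) and EPHA10 lower (-2.17). IGF1R, the receptor of insulin-like growth factors, fell from 158 ± 4.13 to 60.8 ± 1.51 CPM (-1.38). EGFR was at 188 and 316 CPM (0.75) and ERBB2 at 161 and 119.6 CPM (-0.43), both under the threshold.

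The ligands moved in both directions, with 5 higher and 6 lower of 24 tested of 49. HGF, hepatocyte growth factor, rose from 0.109, 0.0732 and 0.0575 CPM in LNCaP to 15.8, 18.3 and 16.3 CPM in C4-2 (log2FC 7.57 ± 0.24), and its receptor MET from 1.59, 0.952 and 0.862 CPM to 3.85, 3.09 and 3.55 CPM (1.60). IGF1, insulin-like growth factor, rose from 0.31 to 10.4 CPM (5.14, with 4.49 and 5.88 without LNCaP replicates 1 and 2), and MDK, the growth factor midkine, from 4.06 ± 0.674 to 41.3 ± 2.43 CPM (3.33). ANGPT2, a ligand of the TIE2 receptor of vessels, fell from 73.03, 90.9 and 84.5 CPM to 1.65, 2.08 and 1.29 CPM (-5.62 ± 0.17). GDF15, a stress-induced member of the TGF-beta family, fell from 476 ± 46.2 to 121 ± 2.93 CPM (-1.98), and NRG4, a ligand of ERBB4, fell from 8.50 ± 0.847 to 1.20 ± 0.238 CPM (-2.81).

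The core of the PI3K, AKT and mTOR pathway held few called genes, 3 of 45 higher (6.67%) and 1 lower (2.22%), with a median log2FC of 0.0241. These 4 calls became 2 without C4-2 replicate 1 or LNCaP replicate 2. IRS1, an adaptor of the insulin and IGF receptors, rose from 8.97, 7.84 and 7.58 CPM to 33.98, 30.9 and 35.7 CPM (2.04), and PIK3R5 was higher (2.06). RAS and MAPK genes had 4 of 45 higher (8.89%) and 11 lower (24.4%). The largest change was ETV1 (ENSG00000006468, chr7:13891228-13991425), an ETS factor downstream of MAPK, with 419.5, 468 and 463 CPM in the LNCaP libraries and 0.495, 0.393 and 0.122 CPM in C4-2 (log2FC -10.32 ± 0.15, edgeR adjusted p = 4.68e-22). DUSP5, a phosphatase that inactivates ERK, fell from 6.59 ± 1.36 to 0.404 ± 0.109 CPM (-4.01), and SPRED3, an inhibitor of RAS signalling, from 4.61 ± 1.34 to 0.556 ± 0.228 CPM (-3.04). FOS, an immediate early gene, was lower at low level (-2.42). MAPK13, which encodes p38 delta, rose from 1.59, 0.879 and 1.44 CPM to 38.4, 40.6 and 40.1 CPM (4.89), and its upstream kinase MAP2K6 from 5.53 ± 0.607 to 22.9 ± 2.12 CPM (2.05). PHLDA1 was also higher (3.64).

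WNT genes had 8 of 37 higher (21.6%) and 3 lower (8.11%). The receptors FZD4 (10.99 to 37.8 CPM, 1.78), FZD8 (5.47 to 21.95 CPM, 1.998) and FZD9 (1.11) and the nuclear factor TCF7L2 (4.49, 4.17 and 4.94 CPM to 21.9, 18.8 and 20.8 CPM, 2.17) were higher. AXIN2, a target and inhibitor of the pathway (-1.39), the receptor FZD3 (-1.08) and the ligand WNT3 (-1.60) were lower. In Notch and Hedgehog signalling 6 of 31 were higher and 3 lower. The receptor NOTCH3 (14.4 to 48.3 CPM, 1.74), its target HES1 (4.79 to 21.2 CPM, 2.15), the glycosyltransferase LFNG (2.04) and the Hedgehog factor GLI3 (2.08 to 15.1 CPM, 2.85) were higher, while HES6 fell from 278 ± 41.4 to 98.5 ± 6.43 CPM (-1.497).

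TGF-beta and BMP genes had 5 of 37 higher (13.5%) and 9 lower (24.3%). INHBB, a subunit of activin, rose from 0.438, 0.586 and 0.46 CPM to 8.91, 8.82 and 8.14 CPM (4.12), and SMAD6, an inhibitory SMAD of the BMP branch, from 11.1 ± 1.46 to 48.4 ± 1.38 CPM (2.13). The BMP receptor BMPR1B fell from 82.4, 85.6 and 88.3 CPM to 18.1, 18.6 and 21.4 CPM (-2.14). ID2, a target of BMP signals (26.3 to 7.12 CPM, -1.88), the co-receptor ENG (-3.17) and SMAD7, an inhibitory SMAD of the TGF-beta branch (-1.30), were lower.

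Cytokine signalling had 5 of 40 genes higher and 8 lower. The chemokine CXCL10 fell from 7.22, 9.67 and 6.03 CPM to 0.11, 0.112 and 0 CPM (-6.51 ± 0.48), and the chemokine receptor CXCR4 from 3.62 ± 0.389 to 0.211 ± 0.0865 CPM (-4.06). TNFAIP3, which restrains NF-kB (13.8 to 2.23 CPM, -2.63), and IL1RN, the antagonist of the IL-1 receptor (7.66 to 1.35 CPM, -2.504), were lower. IL6R (56.5 to 121 CPM, 1.09), the prolactin receptor PRLR (2.09), IL20RA (2.83) and OSMR (1.30, below 1 without LNCaP replicate 1) were higher. Interferon-stimulated and MHC class I genes had 6 of 42 higher (14.3%) and 12 lower (28.6%), with a median log2FC of -0.46. BST2, a membrane protein that tethers enveloped viruses, rose from 0.766, 1.10 and 1.21 CPM in LNCaP to 165, 155 and 147 CPM in C4-2 (log2FC 7.25 ± 0.16, edgeR adjusted p = 3.53e-19). IRF7, a transcription factor of the interferon response, rose from 8.24 ± 1.33 to 52.1 ± 3.33 CPM (2.65), and the immunoproteasome subunit PSMB8 (3.48) and IFITM1 (2.76) were higher. The RNA helicase DDX60 fell from 18.04 ± 2.19 to 2.45 ± 0.634 CPM (-2.88), and IFIT1 (-2.49), IFIT3 (-1.78) and the checkpoint ligand CD274 (-2.07) were lower from levels of 2 to 3 CPM.

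The list of G protein-coupled receptors and cAMP genes was called most often of the signalling lists, with 16 of 50 higher (32%) and 14 lower (28%). Only 50 of 66 could be tested, and several were expressed in 1 line only. PTGFR, the receptor of prostaglandin F2-alpha, rose from 13.6, 15.7 and 15.5 CPM to 149, 143 and 146 CPM (log2FC 3.30 ± 0.094). CHRM3, a muscarinic acetylcholine receptor, rose from 0.821, 0.22 and 0.402 CPM to 28.05, 27.4 and 28.4 CPM (5.77, and 6.41 without LNCaP replicate 1). The nucleotide receptor P2RY2 (3.64, and 4.30 without LNCaP replicate 2) and the serotonin-gated channel HTR3A (2.59) were higher. HTR3A stands in the list as a serotonin receptor and is an ion channel, so it is not a G protein-coupled receptor. LPAR6, a receptor of lysophosphatidic acid, fell from 18.4, 20.9 and 18.8 CPM to 1.15, 0.674 and 1.41 CPM (-4.17), and the adrenergic receptor ADRA2A was lower (-4.32, and -5.87 without C4-2 replicate 3). Of 20 proliferation genes, all tested, none was called by edgeR, though 18 had an adjusted p below 0.05, and their median log2FC was 0.24.

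Outside the lists, the largest changes among genes of at least 10 CPM included several with no shared function. PEG3, an imprinted zinc finger gene, fell from 598, 483 and 617 CPM to 1.32, 0.674 and 0.857 CPM (log2FC -9.20 ± 0.16). RIPOR2 fell from 63.5 ± 1.91 to 0.266 ± 0.11 CPM (-7.85), and MICU3, a regulator of mitochondrial calcium uptake, from 20.7 ± 2.11 to 0.0775 ± 0.0674 CPM. RND3, an atypical small GTPase, rose from 0.492, 0.513 and 0.46 CPM to 159, 139.8 and 142 CPM (8.22). ADAMTSL3 (17.6 CPM in C4-2), LINC01270 (16.4 CPM) and DENND2D (18.3 CPM) were each below 0.15 CPM in LNCaP. Per length, the most abundant called genes that were lower were KLK3 (978 CPM per kb in LNCaP, 85.5 in C4-2), the ribosomal protein gene RPL13A (830.1 and 398), FASN (720.4 and 345), the nuclear RNA MALAT1 (585 and 135) and UGT2B11 (396 and 77.05). RPL13A has many processed copies in the genome, so its count is uncertain. Those that were higher were the histone genes HIST1H1C (209 CPM per kb in LNCaP, 559 in C4-2) and HIST1H2BK (151 and 493), the adaptor subunit AP1S1 (126 and 364), the proton pump subunit ATP6V1F (109 and 305) and the chaperone HSPB1 (134 and 281).

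Called genes were unevenly spread over the chromosomes. On chromosome 7, 255 of 963 genes tested were higher (26.5%) and 62 lower (6.44%), and 714 had a log2FC above 0, with a median of 0.55. On chromosome 13, 85 of 331 were higher (25.7%) and 16 lower (4.83%). Chromosome 19 showed the opposite, with 62 of 1313 higher (4.72%), 330 lower (25.1%) and a median of -0.35. Chromosome 18 followed with 61 of 289 lower (21.1%). The shift of chromosome 7 was 0.46 with vehicle and 0.56 under dual knockdown, and that of chromosome 19 was -0.31 and -0.49. Genome copy number was not measured. Of the genes described above, SEMA3E, HGF, EPHB6, GLI3, HOXA6, LFNG, MET, DLD, AP1S1, MDH2, ATP6V1F, FZD9, HSPB1 and KDM7A lie on chromosome 7 and were called higher, while TWIST1, ETV1, CYP3A5 and STEAP4 lie there and were called lower. On chromosome 13, PDX1 was higher, and DNAJC15, MBNL2 and LPAR6 were lower. On chromosome 19, KLK3, KLK2, HPN, GDF15, SPRED3, PEG3 and RPL13A were lower, and BST2, RGL3, CPT1C, NOTCH3 and CYP4F8 were higher.

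**Figure D4:**
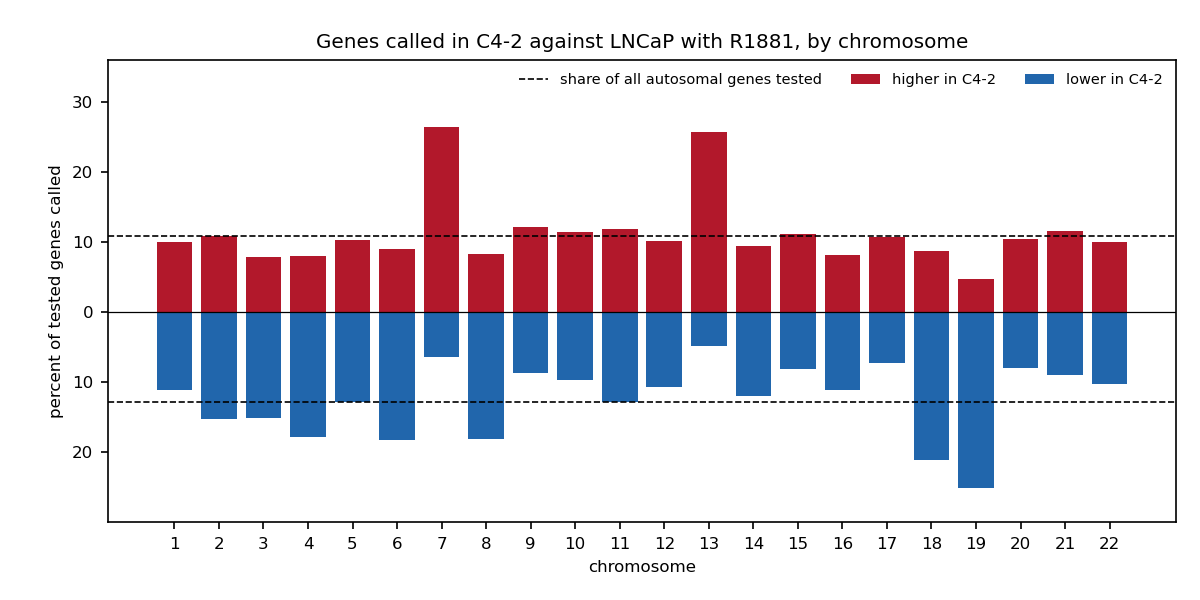
Share of the tested genes of each autosome called higher (red, upward) or lower (blue, downward) in C4-2 than in LNCaP with R1881, in percent. Dashed lines mark the shares over all autosomes, 10.8% and 12.8%. Chromosomes 7 and 13 stand above the upper line with 26.5% and 25.7%, and chromosome 19 reaches 25.1% lower.

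In windows of 10 Mb with at least 20 genes tested, the highest medians were on chromosome 13. From 20 to 30 Mb, 35 of 57 genes were higher and 0 lower (median log2FC 1.24), among them GTF3A, a factor for 5S rRNA transcription (107 ± 6.66 to 389 ± 26.1 CPM), the polymerase subunit POLR1D (81.6 ± 4.73 to 287 ± 15.7 CPM) and the proteasome assembly factor POMP (92.7 ± 6.34 to 318 ± 25.8 CPM). From 30 to 40 Mb, 22 of 41 were higher and 1 lower (median 1.06), with SPART (3.67, 2.64 and 1.95 CPM to 97.3, 99.8 and 95.8 CPM), FRY (16.03 ± 1.46 to 135 ± 5.44 CPM) and UFM1 (79.7 ± 7.13 to 246 ± 13.4 CPM). A window of chromosome 9 from 60 to 70 Mb followed (median 1.03), with the near-identical copies CBWD3 and CBWD5, whose reads may be shared. The lowest median was that of chromosome 19 from 20 to 30 Mb, where 40 of 60 genes were lower and 1 higher (median -1.67). Its zinc finger genes ZNF730 (12.6 ± 1.20 to 0.119 ± 0.109 CPM), ZNF728 (14.8 ± 1.65 to 0.381 ± 0.108 CPM) and ZNF681 (11.8 ± 0.97 to 0.758 ± 0.248 CPM) were nearly off in C4-2. The UGT2B window of chromosome 4 from 60 to 70 Mb came next (10 of 26 lower, median -0.96), then chromosome 3 from 0 to 10 Mb (13 of 41 lower, median -0.84) with LRRN1, TTLL3 (-1.92) and SUMF1 (-1.64).

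The same lines could be compared in libraries that the comparison above did not use. With vehicle in both lines 4335 genes were called (24.1%), and 2865 were called the same way with R1881, 67.4% of the R1881 calls and 66.1% of the vehicle calls. Another 36 genes were called in opposite directions. Under dual knockdown with R1881, 4122 genes were called (22.9%), and 3054 were called the same way, 71.8% of the calls in siScr cells and 74.1% of those under knockdown. There 3 genes went in opposite directions. Knockdown was not equal in the lines, since KDM1A was at 51.6 ± 2.86 CPM in LNCaP and 16.4 ± 3.03 CPM in C4-2, and KDM7A at 30.9 ± 2.93 and 21.2 ± 2.88 CPM. In all 3 pairs of groups 2299 genes were called the same way, 1096 higher and 1203 lower in C4-2. KLK3, TMEFF2, ETV1, SLC16A3, LDHB, SLC7A5, BST2 and EPHA3 were among them. ETV1, at 278 ± 13.4 CPM in LNCaP with vehicle, was at 0.0536 ± 0.0519 CPM in the libraries titled C4-2 with vehicle, near 0 as in the other C4-2 libraries.

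For 787 genes (4.37% of those tested) the difference between the lines itself differed between R1881 and vehicle, 364 upward (2.02%) and 423 downward (2.35%). Among the lists, 7 of 29 androgen-induced genes tested, 6 of 28 luminal genes, 6 of 38 genes of lipid synthesis, 5 of 27 of steroid metabolism, 4 of 24 growth factors and binding proteins and 2 of 12 basal genes were downward and none upward. The androgen-induced list was chosen for induction in LNCaP, so its choice favours downward values. Of 42 interferon genes, 10 were downward and 1 upward. Other lists went the other way, with 3 of 45 PI3K, AKT and mTOR genes and 2 of 18 gut, liver and pancreas genes upward and none downward. Of 18 mesenchymal genes 3 were upward and 1 downward, and of 36 receptor tyrosine kinases 4 were upward and 2 downward. KLK2 was at 27.8 ± 1.19 CPM in LNCaP and 25.5 ± 3.14 CPM in C4-2 with vehicle, against 867 and 257 CPM with R1881 (difference -1.68, edgeR adjusted p = 4.62e-09). TMPRSS2 was at 67.97 ± 2.23 and 71.2 ± 9.57 CPM with vehicle (difference -1.04). FASN was at 1593 ± 196 CPM in LNCaP and 1990 ± 242 CPM in C4-2 with vehicle (difference -1.38, edgeR adjusted p = 5.19e-06), FDFT1 at 248 ± 3.22 and 256 ± 32.6 CPM (-1.30) and UGT2B11 at 44.8 ± 4.68 and 39.97 ± 13.9 CPM (-2.28). For these 5 genes the vehicle levels of the lines were close. The R1881 levels were above the vehicle levels in both lines, by more in LNCaP. KLK3 followed another course. It was already lower in C4-2 with vehicle, at 345 ± 13.9 against 21.6 ± 2.88 CPM (log2FC -3.95), and the difference between R1881 and vehicle was 0.44.

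**Figure D5:**
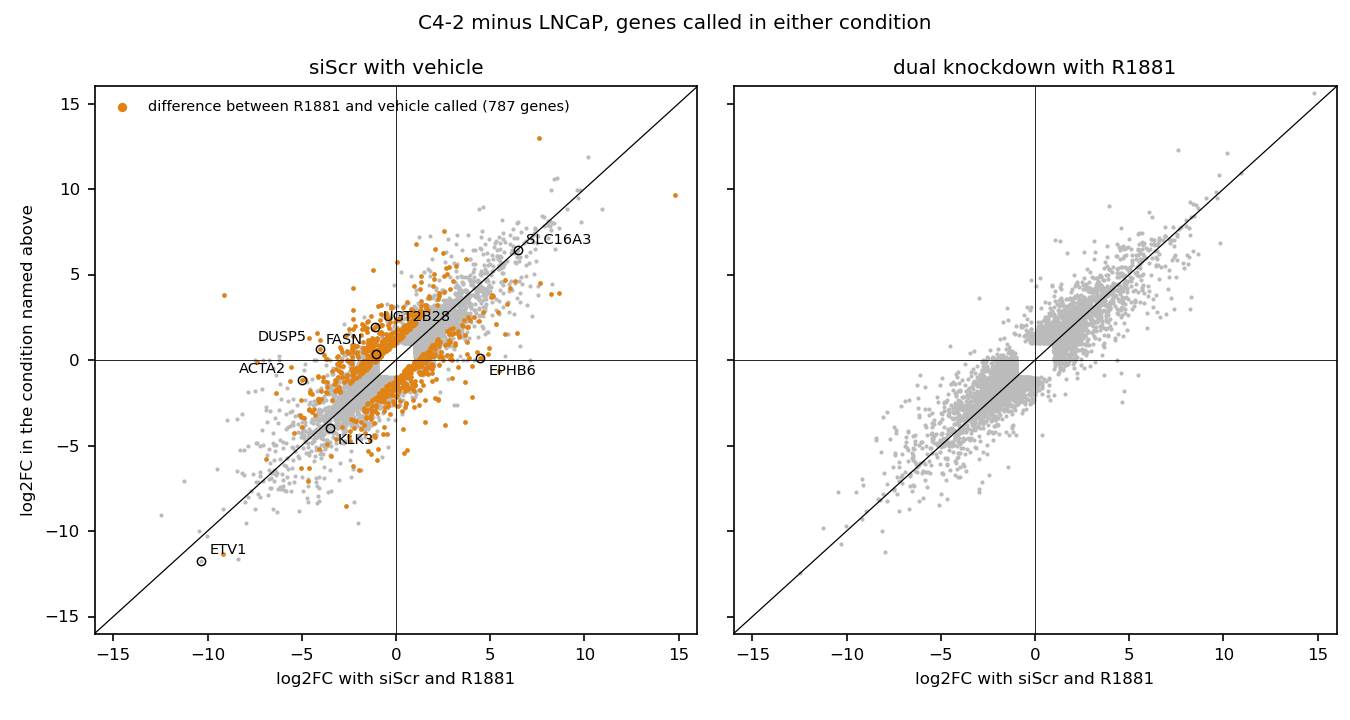
Log2FC of C4-2 minus LNCaP with siScr and R1881 (horizontal axis) against the same difference with siScr and vehicle (left) or under dual knockdown with R1881 (right), for genes called in either condition. Orange points are the 787 genes whose line difference changed between R1881 and vehicle. SLC16A3 lies near the line of equal difference with vehicle (log2FC 6.47 and 6.44), while FASN and UGT2B28 were lower in C4-2 with R1881 and not with vehicle.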

How the data were processed

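Counts are those the authors deposited, a read count per gene and library from featureCounts v1.5.0-p1 run on read pairs with GRCh38 and the Ensembl 83 annotation, per the file headers, which name no strand or multimapping option. Overlapping, antisense and near-identical genes can thus share or lose reads. The submitters' processing notes name Trim Galore, cutadapt, FastQC and STAR.

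Groups followed the titles. All 18 libraries (total counts 3182604 to 20154243, the smallest C4-2 vehicle replicate 3) were fitted as 6 groups in edgeR 4.0.16 (R 4.3.3) with TMM factors, genes kept by filterByExpr (minimum count 10), quasi-likelihood tests and Benjamini-Hochberg adjustment over the 18684 genes tested, from which 17993 autosomal genes were taken. CPM used TMM effective library sizes, and CPM per kb the deposited gene length. Between replicates of the 6 libraries of the main comparison, the variance of counts was 2.41 to 6.57 times that of sampling noise (chi-square per gene). The members, gene lists and rules were chosen with earlier results of these data known. Named genes were the targeted genes, lineage factors, up to 4 called genes of at least 1 CPM per list and direction with the largest change, the 10 largest changes of at least 10 CPM, the 8 highest near-silent genes and the 5 most abundant called genes per direction. Other genes are named from the lists or windows. List results were counted, with no set test. Alternatives were other normalizations, filters, thresholds and models, DESeq2 1.42.0 among them, thinned counts, the replicate block and leaving out each library. The script was tested on simulated data. Genes on X and Y were left out, and some items are not reported here.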

Additional observations from a re-analysis of the deposited data

Results flagged for a closer look

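In 787 genes the difference between C4-2 and LNCaP changed between vehicle and R1881, by the interaction term of edgeR with the same thresholds. Of the genes named by rule, 46 were among them, 16 with a positive and 30 with a negative change. A negative value means that C4-2 stood lower against LNCaP with R1881 than with vehicle, on the log2 scale. These values share their R1881 libraries with the differences reported above.

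Among luminal, basal and androgen-induced genes the values were negative: KLK2 -1.68, ACPP -1.48, MSMB -1.76, TMPRSS2 -1.04, STEAP4 -3.73, KRT19 -1.67 and LAMB3 -2.40. STEAP4 was at 0.0756 ± 0.0703 CPM in LNCaP and 0.164 ± 0.148 CPM in C4-2 with vehicle. The UGT2B genes were of the same sign, with UGT2B10 at -3.31, UGT2B28 at -3.05, UGT2B11 at -2.28 and UGT2B17 at -1.09. Other metabolic genes with negative values were ELOVL6 at -1.496, FASN at -1.38, FDFT1 at -1.30, HMGCS1 at -1.05, CYP1A1 at -1.23, GNMT at -2.42 and ARG2 at -1.67. ALDH1A1, of the redox list, had a positive value, given below.

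Of the signalling genes, ANGPT2 (-4.39), DUSP5 (-4.66), NRG4 (-2.45), HES6 (-2.07), MET (-1.43), ID2 (-1.53), TNFAIP3 (-1.64), IFIT1 (-2.38) and IFIT3 (-2.47) were negative, as was ACTA2 (-3.85). DUSP5 was at 2.85 ± 0.617 CPM in LNCaP and 4.71 ± 0.949 CPM in C4-2 with vehicle. Positive values were found for EPHB6 (4.35), EPHA3 (2.59), EPHA7 (1.73), IRS1 (1.32), PHLDA1 (2.17), FOS (2.33), INHBB (1.62), IL20RA (1.63) and CHRM3 (1.12). EPHB6 was at 0.227 ± 0.26 CPM in LNCaP and 0.223 ± 0.0614 CPM in C4-2 with vehicle, against 0.0983 and 2.40 CPM with R1881. Further positive values were those of SYT4 (2.41), COL5A1 (1.40), FBN1 (1.40), PEG3 (2.13), SPART (1.37) and ADAMTSL3 (3.14). The R1881 log2FC that enters the ADAMTSL3 value was 7.63, with 7.005 and 8.955 without LNCaP replicates 1 and 2. For ALDH1A1 (5.11), HGF (-5.41) and KRT15 (-5.20) at least 1 of the 4 groups had 3 counts or fewer, so these 3 values depend on the prior count of the fit. No outlier test was made within the groups of 3 libraries.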

How the results depend on the processing

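The counts of called genes depended on thresholds and filters more than on normalization. The adjusted p alone gave 10483 genes with R1881, 10603 with vehicle, 10387 under dual knockdown and 2533 for the change between R1881 and vehicle. A glmTreat test against a 2-fold change gave 2498, 2519, 2409 and 180 genes, and at least 10 counts in every library gave 1561, 1683, 1495 and 376. Thinning the libraries of each comparison to the smallest among them gave 2674 genes with vehicle and 440 for the change between R1881 and vehicle, both of which hold the library of 3182604 counts. The R1881 comparison, whose smallest library had 14350626 counts, gave 4022 and was not thinned further. Leaving out each library gave 4052 to 4419 genes with R1881, 4021 to 4606 with vehicle, 3928 to 4277 under dual knockdown and 674 to 802 for the change. With R1881 the other settings stayed within 1.5 times the 4251 called, from 2949 (mean of at least 1 CPM) to 4699 (no filter), with 4155 from DESeq2.

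With the replicate number as a block 4222 genes were called with R1881, against 4251 without it. Between the R1881 siScr libraries of the lines, those with the same number did not deviate together (correlations of -0.07, -0.09 and -0.003). Libraries with the same number within a line were not compared in this way. A culture or batch shared by libraries of the same number thus cannot be told from these values.

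Of 210 genes named by rule, the direction reversed for KRT14 alone (-0.25 in the report's fit, -0.56 to 0.035 over the leave-one-out fits). KDM7A and MSMB fell below the threshold with upper quartile factors, MSMB also with thinned counts, and KDM7A also among genes with at least 10 counts in every library. Of 26 gene lists, the number of called genes moved by over 1.5 times for 19 with the adjusted p alone, 19 with at least 10 counts in every library, 6 in glmTreat, 3 with a mean of at least 1 CPM and 1 with only the groups compared. SLC2A1 and KLK4 came to pass it under some settings. Of the 210 genes, 30 lost their call in glmTreat, and 116 had at least 10 counts in every library. The smallest library, of C4-2 with vehicle, limits calls of low genes with vehicle.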

Other observations

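The following families were chosen after their values were seen, and no test was made on them as groups. Zinc finger genes named ZNF were often lower in C4-2 on chromosome 19. Of 226 tested there, 124 were lower (54.9%) and 1 higher, with a median log2FC of -1.11, beside 206 of 1087 other genes of that chromosome (19%). Of 202 ZNF genes on other autosomes, 20 were lower (9.90%) and 4 higher. The medians of the chromosome 19 group were -1.14 with vehicle and -1.01 under dual knockdown.

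Protocadherins of the PCDHB and PCDHG clusters of chromosome 5 are adhesion proteins of neurons. All 14 PCDHB genes tested were called lower with R1881, and their summed level was 54.2 CPM in LNCaP and 0.606 CPM in C4-2. PCDHB5 was at 20.02, 20.4 and 18.5 CPM in the LNCaP libraries and 0.055, 0.225 and 0.0612 CPM in C4-2. PCDHB2 was at 10.6, 11.6 and 13.8 CPM and 0.165, 0 and 0.184 CPM. Of 21 PCDHG genes, 17 were lower (median log2FC -3.12). PCDHG genes overlap and share exons, so how their reads were counted is uncertain.

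A set of 36 genes was called in opposite directions with R1881 and with vehicle, 25 of them lower in C4-2 with R1881 and higher with vehicle. UGT2B28 was one, at 2.96 ± 0.447 CPM in LNCaP and 11.3 ± 0.48 CPM in C4-2 with vehicle. PIK3AP1, an adaptor of PI3K, went the other way. It was at 16.1 ± 0.426 CPM in LNCaP and 66.99 ± 5.85 CPM in C4-2 with R1881, and at 14.9 ± 0.509 and 3.55 ± 0.969 CPM with vehicle. BAMBI, a decoy receptor of the TGF-beta family, was at 17.8 ± 1.40 and 7.77 ± 0.908 CPM with R1881 and at 19.96 ± 0.958 and 41.9 ± 6.09 CPM with vehicle. The C4-2 vehicle libraries, whose cell line field names LNCaP, had the C4-2 levels of genes that separate the lines. SLC16A3 was at 193 ± 15.3 CPM in them and 2.32 ± 0.574 CPM in LNCaP with vehicle, and BST2 at 145 ± 12.2 and 0.888 ± 0.163 CPM.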
